A study of Mus musculus with 2 samples.

Results

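A small set of cells in a single-cell survey of the mouse hippocampus was defined by a group of transcripts that includes Lef1, a DNA-binding effector of Wnt signalling, and Otx2os1, a long non-coding RNA made from the strand opposite the homeobox gene Otx2. A cell was counted as one of these Lef1/Otx2os1 cells when at least 3 of 6 transcripts (Lef1, Otx2os1, 6330411D24Rik, Chrm2, Hs3st5 and Pld5) had a deposited value of 2 or more and Flt1, an endothelial receptor, was below 2. The rule took 186 of 15930 cells, a share of 1.17% (exact 95% interval 1.01% to 1.35%). The interval covers counting error only, as do all intervals here. The Flt1 limit removed no cell. The name stands for the rule and not for the pair: Lef1 was at 2 or more in 133 of the 186 cells, Otx2os1 in 96, and both in 70. The cells were chosen by the measured values of these 6 transcripts and of Flt1, so levels of those transcripts are given only as a description.

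The hippocampi came from wild-type C57Bl.6/J mice and from mice of the same strain homozygous for the knock-in allele Pigv341E. Pigv encodes a mannosyltransferase that helps build the glycosylphosphatidylinositol (GPI) anchor, the lipid that tethers many proteins to the cell surface. Cells from 8 hippocampi of 4 mice per genotype were dissociated mechanically at 4 °C and pooled, giving 1 droplet library (10x Genomics, version 3) per genotype. The age of the mice is not given in the sources used here. With 1 library of each kind there is no replicate check and no test between genotypes was made. A difference of genotype and a difference of library cannot be told apart.

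Neurons that release GABA make it with the enzymes encoded by Gad1 and Gad2 and load it into vesicles with the transporter Slc32a1. Excitatory neurons load glutamate with Slc17a7, the form used in hippocampus and cortex, or Slc17a6, the form typical of thalamus, midbrain and other subcortical regions. Region of origin is written in transcription factors: Neurod2 and Neurod6 belong to excitatory neurons of the pallium, Dlx genes and Lhx6 to interneurons of the ventral telencephalon, Tcf7l2 to thalamic neurons, and Gata2, Gata3, Tal1, Sox14 and Otx2 to GABA neurons born in the midbrain.

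The deposited values are whole numbers already corrected for the depth of each cell, and are not raw counts. The sequencing depth of a cell is therefore unknown. The summed values of the 186 cells lay between 7628 and 11566 per cell, with a median of 10110, and a median of 4216 genes were above 0. Other neurons (7867 cells with at least 3 of the 6 pan-neuronal genes Rbfox3, Syt1, Snap25, Grin2b, Celf4 and Nrg3 at 2 or more and no second cell type) had a median sum of 9997 and 4163 genes. Below, a level is a gene's share of the summed values of a group of cells, given per 10000. In total 28 cell barcodes occurred in both libraries, and none of them belonged to a Lef1/Otx2os1 cell.

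The label of these cells as neurons held for most of them. At least 3 pan-neuronal genes were at 2 or more in 175 of 186 cells, and 160 cells (86.0%, 80.2% to 90.7%) met this with fewer than 3 markers of every glial, vascular, choroid plexus and ependymal list. The exceptions were of several kinds. At least 3 of 8 choroid plexus markers were present in 12 cells, 7 from the wild-type library and 5 from the knock-in library. At least 3 oligodendrocyte markers were present in 6 cells and at least 3 microglial markers in 5, all of these in the knock-in library. The 12 cells with choroid plexus markers had Otx2os1 values from 12 to 38 and held 81.0% of all Ttr, the choroid plexus thyroxine carrier, among the 186 cells. Ttr and Otx2 are among the 8 markers, so the Ttr share and the Otx2os1 values follow in part from the choice of these cells. Of genes that are not among the 8, the 12 cells held 98.0% of Lmx1a and 77.9% of Htr2c, while their highest value of Chrm2 was 1. Results that rest on these 12 cells are given with and without them.

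The wild-type library held 54 Lef1/Otx2os1 cells among 7094 (0.761%, 0.572% to 0.992%) and the knock-in library 132 among 8836 (1.49%, 1.25% to 1.77%). The knock-in share was 1.96 times the wild-type share. The pools differ in genotype and in library, which cannot be told apart. The 6 transcripts did not mark the same cells. Hs3st5, which encodes a sulfotransferase of heparan sulfate, was at 2 or more in 136 of the 186 cells. The non-coding RNA 6330411D24Rik was so in 129 cells, Chrm2 (the M2 muscarinic receptor) in 116 and Pld5, of the phospholipase D family, in 76. The level of Lef1 was 5.09 in wild-type and 4.43 in knock-in Lef1/Otx2os1 cells, against 0.0417 and 0.124 in other neurons. Otx2os1 stood at 4.83 and 7.95, against 0.0947 and 0.0553. These differences follow in part from the choice of the cells.

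The rule has a threshold and cells lay on both sides of it. Exactly 3 of the transcripts were at 2 or more in 98 of the 186 cells, 4 in 51, 5 in 34 and all 6 in 3. Another 390 cells had 2 transcripts and stayed outside. The level of Lef1 was 4.84 in the cells with 3 and 1.79 in those with 2. The level of 6330411D24Rik was 4.06 and 1.06, and that of Otx2os1 6.38 and 3.33. The other markers did not step down in this way. Chrm2 stood at 2.62 and 2.59, Hs3st5 at 3.28 and 3.30, and Pld5 at 2.27 and 2.80. The share of cells of GABA type, defined below, was 21.4% just inside and 26.7% just outside. That of glutamate type was 34.7% and 26.2%.

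By position, Otx2os1 lies on chromosome 14 from 48668708 to 48870683 on the plus strand, and Otx2 from 48657677 to 48673819 on the minus strand (GRCm38, GENCODE M21). The 2 genes overlap and the strand setting of the counting is not given in the sources used here, so reads of the overlap cannot be told apart and Otx2 is not independent of the rule. Lef1 lies on chromosome 3 from 131110471 to 131224356, and 6330411D24Rik on chromosome 4 from 142598441 to 143074839.

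The transcription factors that recurred in the GABA cells described below include Tal1 and Sox14, and their promoters are shown as the DNA around which such regulators act. The 250 bases before the annotated start of 6 genes (Otx2, Gata3, Tal1, Sox14, Ebf1 and Tcf7l2, with 12 starts in all; RefSeq, GRCm38.p6) were searched on both strands. The motif of the GATA zinc-finger proteins was spelled AGATAA. That of the OTX homeobox proteins was spelled TAATCC. That of the TCF and LEF proteins was spelled CTTTGA. Capitals mark matches, and before Tal1 a zinc-finger match overlaps a TCF/LEF match.
Tal1, chr4:115056176-115056425, plus strand: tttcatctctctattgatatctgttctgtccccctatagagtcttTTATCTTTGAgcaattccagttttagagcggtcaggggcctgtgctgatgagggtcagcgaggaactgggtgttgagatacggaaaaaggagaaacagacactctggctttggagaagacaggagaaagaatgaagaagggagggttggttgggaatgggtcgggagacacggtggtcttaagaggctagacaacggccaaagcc
Sox14, chr9:99876171-99876420, minus strand: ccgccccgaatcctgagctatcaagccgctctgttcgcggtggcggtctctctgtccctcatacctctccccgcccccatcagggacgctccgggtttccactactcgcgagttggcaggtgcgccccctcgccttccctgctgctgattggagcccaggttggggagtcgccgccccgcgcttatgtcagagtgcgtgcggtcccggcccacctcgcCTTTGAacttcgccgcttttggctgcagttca
The zinc-finger motif occurred in 4 of the 12 windows, the OTX motif in 2 and the TCF/LEF motif in 2. Over the same 250 bases of all 32851 promoters the shares were 9.99%, 6.25% and 13.8%. A match is a description of these letters and no evidence that a factor binds.

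Most of the Lef1/Otx2os1 cells that could be typed carried genes for either GABA or glutamate release, but 77 of the 186 could not be typed. A cell was called GABA type when at least 2 of Gad1, Gad2 and Slc32a1 were at 2 or more and no Slc17a transporter was, and glutamate type when at least 1 of Slc17a6, Slc17a7 and Slc17a8 was at 2 or more and fewer than 2 of the GABA genes were. Of the 186 cells, 55 were of GABA type (29.6%, 23.1% to 36.7%), 48 of glutamate type (25.8%, 19.7% to 32.7%), 6 of both and 77 of neither. With transmitter genes required at 3 or more the shares were 17.7% and 14.0%, and in cells with at least 4 markers 38.6% and 15.9%. The 77 cells are 41.4% of the set, and the share of neither type ran from 30.8% in the CA3 class through 40.7% in CA1, 42.5% in Lhx6 interneurons and 48.6% in dentate granule cells to 67.3% in the class of subiculum and deep cortex. (A class here is the marker list with the most genes at 2 or more in a cell, at least 3.) At least 3 choroid plexus markers were present in 11 of the 77 untyped cells, in 1 of the 48 of glutamate type and in 0 of the 55 of GABA type. The 41.4% therefore includes cells that are not clearly neurons. Of the 77 untyped cells, 38 had 1 GABA gene at 2 or more. So did 6 of the 48 cells of glutamate type, with Gad2 in each. Among other neurons 3.18% were of GABA type and 51.5% of glutamate type.

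**Figure D1:**
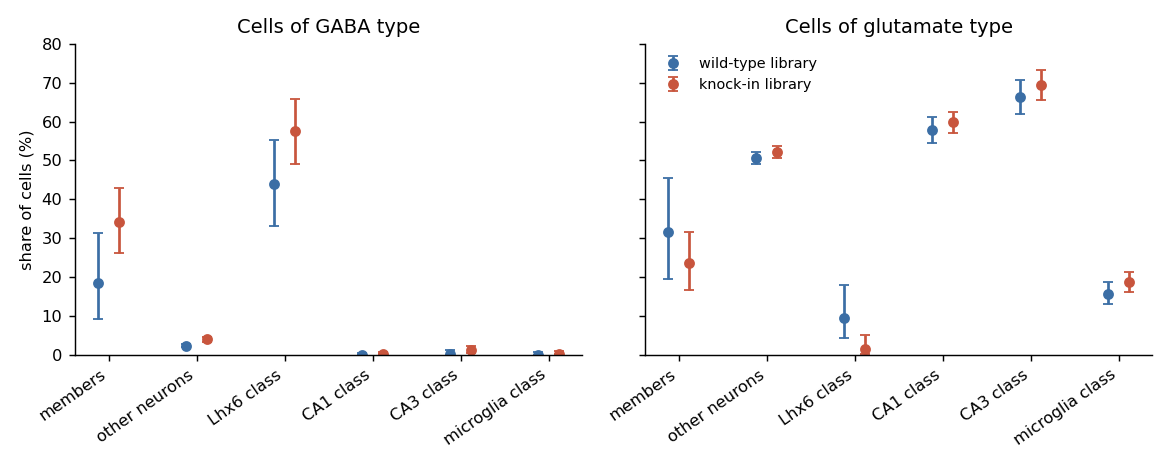
Share of cells of GABA type (left) and glutamate type (right) in each library, as percent of the cells named on the horizontal axis; "members" are the Lef1/Otx2os1 cells, points are shares and bars are exact 95% intervals. The GABA share of the Lef1/Otx2os1 cells (18.5% and 34.1%) lies between that of other neurons and that of the Lhx6 class (44.0% and 57.6%).

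Gad2 was the GABA gene found most often. It was at 2 or more in 91 of the 186 cells (48.9%, 41.5% to 56.3%), against 4.89% of other neurons, 68.4% of the Lhx6 class and 0.725% of microglia, which should lack it (median sums of 10110, 9997, 10229 and 7671). Its level was 1.65 in wild-type and 2.70 in knock-in Lef1/Otx2os1 cells and 0.268 and 0.371 in other neurons. Slc32a1 was at 2 or more in 25.3% and Gad1 in 26.3%. After each cell was thinned to a sum of 4800, which left out no cell, Gad2 remained at 2 or more in 30.6% of the Lef1/Otx2os1 cells, 3.08% of other neurons and 39.9% of the Lhx6 class. All 3 GABA genes were thus found in these cells far more often than in other neurons.

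On the glutamate side the transporter was the subcortical form. Slc17a6 was at 2 or more in 40 of the 186 cells (21.5%, 15.8% to 28.1%), against 3.09% of other neurons and 1.05% of microglia. The classes that shared it were few: 28.8% of the Cajal-Retzius class had it, 3.13% of the CA1 class and 1.58% of the CA3 class. Slc17a7 showed the reverse. It was at 2 or more in 8.06% of the Lef1/Otx2os1 cells. That is below the 16.4% of microglia, so these values are no clear sign that the cells use Slc17a7. Whether free RNA in the droplets gave them was not tested. In other neurons the share with Slc17a7 was 49.3%. Of the 48 cells of glutamate type 38 carried Slc17a6. The others were typed by Slc17a7 alone, and all 48 are kept in the comparisons of types below. Slc17a8 was at 2 or more in 1 cell. Counting Slc17a6 alone gave a glutamate share of 20.4%.

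**Figure D2:**
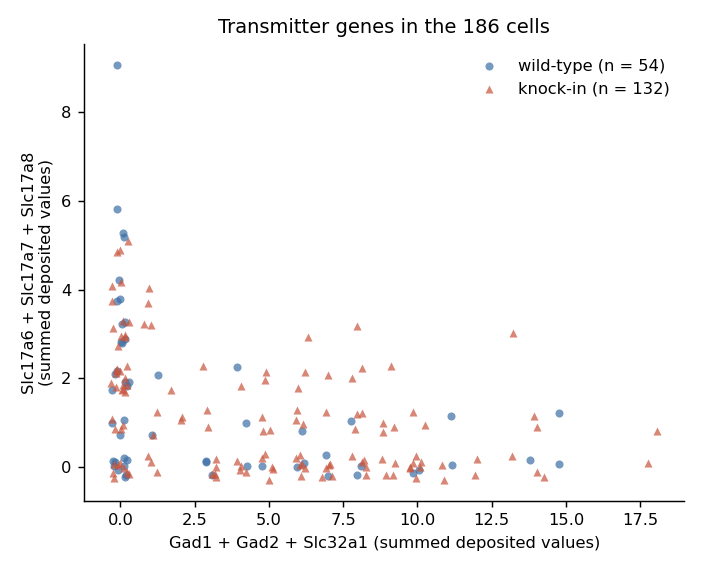
Each point is 1 of the 186 Lef1/Otx2os1 cells (circles wild-type, triangles knock-in); the horizontal axis is the summed deposited value of the 3 GABA genes and the vertical axis that of the 3 glutamate transporters, with points spread slightly so that they do not hide each other. Most cells lie along or near the 2 axes, and 6 were of both types.

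The intervals of the libraries overlapped for both types. In the wild-type library 10 of 54 cells were of GABA type (18.5%, 9.25% to 31.4%) and 17 of glutamate type (31.5%, 19.5% to 45.6%). In the knock-in library 45 of 132 were of GABA type (34.1%, 26.1% to 42.8%) and 31 of glutamate type (23.5%, 16.5% to 31.6%). The Lhx6 class went the same way, with 44.0% of GABA type in wild-type and 57.6% in knock-in cells. Of 11 genes in the table that mark other transmitters (acetylcholine, dopamine, serotonin, noradrenaline, glycine and histamine), the 2 that were measured, Slc18a2 and Hdc, did not differ 2-fold from other neurons. Chat and Th were at 2 or more in no Lef1/Otx2os1 cell, which allows a share of up to 1.61%.

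Regional identity was read from gene lists, by counting the genes whose level was at least 2-fold higher or lower than in other neurons in both libraries, with 0.1 added to levels. Over all 9406 genes measured (a level of at least 0.2 in any of these groups), 3.5% were higher and 3.77% lower. Of the midbrain-derived GABA list 6 of 7 measured genes were higher (Otx2, Sox14, Gata3, Tal1, Lhx5 and Pax7) and none was lower. Otx2 is tied to the rule through Otx2os1, and with values of 1 set to 0 the count was 3. The seventh, Lhx1, was 1.49-fold higher in the wild-type comparison. Lhx1 and Lhx5 are also on the list of Cajal-Retzius markers used here. Of the thalamic glutamatergic list 6 of 13 were higher (Tcf7l2, Rora, Plekhg1, Synpo2, Amotl1 and Patj) and none was lower. Of the pallial telencephalon list none was higher and 6 of 9 were lower, among them Neurod2, Neurod6, Bcl11b, Zbtb20 and Prox1. Zbtb20 was lower in level but not absent. It was at 2 or more in 68.8% of the Lef1/Otx2os1 cells, 78.1% of other neurons and 34.2% of the Lhx6 class.

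Gata3, a zinc-finger factor of midbrain GABA neurons, was rare in the rest of the table. It was at 2 or more in 35 of all 15930 cells, and 28 of the 35 were Lef1/Otx2os1 cells (5 wild-type and 23 knock-in). Its level was 0.372 in wild-type and 0.691 in knock-in Lef1/Otx2os1 cells and at most 0.00256 in other neurons. Sox14, another factor of midbrain GABA neurons, was at 2 or more in 7 cells of the whole table, all of them Lef1/Otx2os1 cells. Pax7, a dorsal midbrain factor, was so in 10 cells, of which 8 were Lef1/Otx2os1 cells. Tal1, a partner of the GATA factors, was at 2 or more in 13 Lef1/Otx2os1 cells and 0.0381% of other neurons, but also in 12.7% of microglia, cells of the blood lineage, in which it also acts. En1, of the midbrain-hindbrain boundary, was listed at 0 in these cells and in other neurons, and Gata2 and Tal2 fell below the level required to be measured.

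Because Otx2 is not independent of the rule, cells were counted over the other 9 genes of the list, a choice made after seeing the data. At least 1 of these was at 2 or more in 51 of the 186 cells (27.4%, 21.1% to 34.4%) and in 61 of 7867 other neurons (0.775%, 0.594% to 0.995%). At least 2 were so in 22 cells of the table, 15 of them Lef1/Otx2os1 cells and 7 other neurons. The 228 cells of the Lhx6 class held no cell with any gene of the list, which allows a share of up to 1.32%. Otx2 was at 2 or more in 47 Lef1/Otx2os1 cells, or 37 without the 12 cells with choroid plexus markers. It was also at 2 or more in 45.3% of the choroid plexus class. Otx2 is itself among the choroid plexus markers, so both of these values depend on it.

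Genes of the thalamic list were also found in other cells. Tcf7l2 was at 2 or more in 26.3% of the Lef1/Otx2os1 cells and 1.97% of other neurons, and also in 48.6% of microglia. Rora, a nuclear receptor, was at 2 or more in 98.9% of the Lef1/Otx2os1 cells and in 92.4% of other neurons. The difference was one of level, 30.1 and 34.4 in wild-type and knock-in Lef1/Otx2os1 cells against 8.21 and 8.45. Amotl1, which binds junction proteins, was at 2 or more in 22.0%, against 1.55% of other neurons. Gbx2, a factor of the developing thalamus, was at 2 or more in no Lef1/Otx2os1 cell. Of the wider midbrain list 4 of 8 measured genes were higher (Otx2, Pax7, Lmx1a and Tfap2b) and Nr4a2 was lower. Lmx1a rested on the cells with choroid plexus markers, outside which its level was 0.0116.

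Several genes of hippocampal excitatory neurons had low levels, though some cells carried their markers. At least 3 CA3 markers were at 2 or more in 29 of the 186 cells, dentate granule markers in 14 and CA1 markers in 10, and these were the lists with the most genes in 14, 6 and 2 cells. Neurod2 was at 2 or more in 0 of 186 cells, which allows up to 1.61%, against 8.48% of other neurons and 2.44% of microglia. Prox1, of dentate granule cells, was so in 2.69%, against 59.7% of the dentate class. Of the dentate granule list 5 of 9 measured genes were lower, of the CA3 list 4 of 8 and of the CA1 list 2 of 8, and none of the 3 lists had a gene that was higher. The list of subiculum and deep cortex differed: at least 3 of its markers were at 2 or more in 112 of the 186 cells (60.2%). For such counts of at least 3 markers no share of other neurons is given here. They are therefore no measure of likeness to these classes.

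Interneurons of the hippocampus shared some genes with the set but not their defining factor. Of the Lhx6 interneuron list 5 of 6 measured genes were higher than in other neurons (Nxph1, Sst, Sox6, Grin3a and Kcnmb2). At least 3 genes of that list were at 2 or more in 36 of the 186 cells, and it was the list with the most genes in 14. Lhx6 itself, the factor of interneurons from the medial ganglionic eminence, was at 2 or more in none of them and in 15.8% of the Lhx6 class. Dlx1 was so in 2 cells. The list with the most genes was more often that of subiculum and deep cortex (70 cells), through Rorb, Cux2 and Foxp2, which were higher than in other neurons. These were 3 of its 7 measured genes, and Fn1 was lower. Fezf2, a defining gene of deep cortical neurons, had levels of 0.0186 and 0.0231, against 0.145 and 0.179 in other neurons. Of the Cajal-Retzius list 3 of 6 measured genes were higher (Lhx5, Cacna2d2 and Ebf3) and none was lower. At least 3 genes of that list were at 2 or more in 10 of the 186 cells, and it was the list with the most genes in 2.

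**Figure D3:**
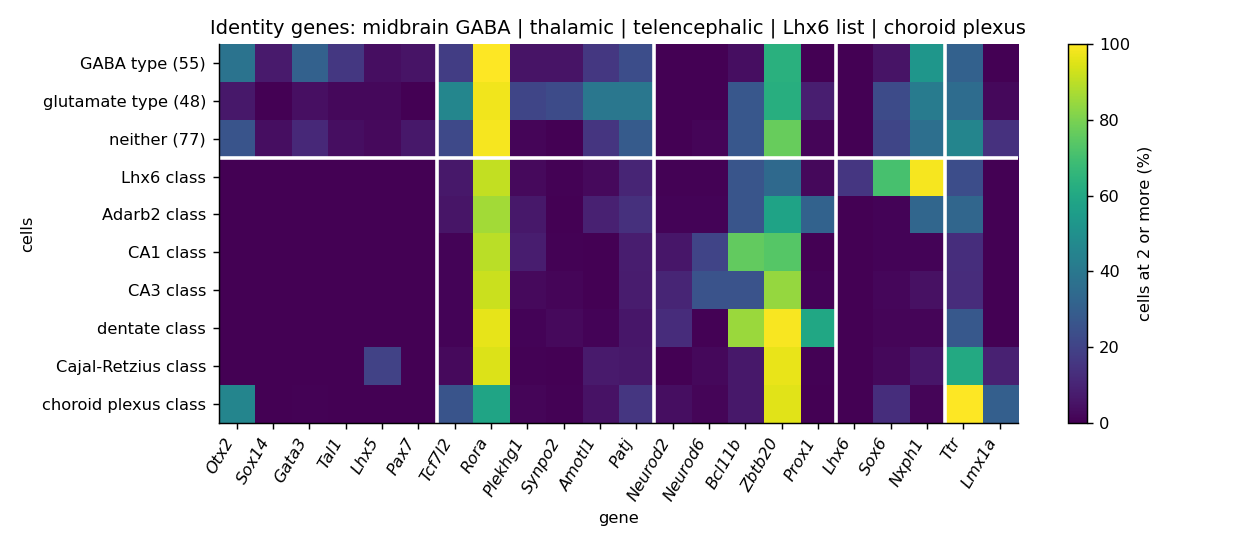
Share of cells at 2 or more (colour, 0% to 100%) for regional genes in Lef1/Otx2os1 cells of GABA, glutamate or neither type (top 3 rows) and in cells of other classes. Gata3 reaches 30.9% in the GABA-type cells and 0% in the Lhx6, CA1, CA3 and dentate classes, and Tcf7l2 45.8% in the glutamate-type cells.

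The midbrain genes lay mainly with the GABA cells and the thalamic genes with the glutamate cells. At least 1 midbrain-derived GABA gene other than Otx2 was at 2 or more in 29 of 55 cells of GABA type (52.7%, 38.8% to 66.3%) and in 3 of 48 of glutamate type (6.25%, 1.31% to 17.2%). Gata3 was so in 17 of 55 and 2 of 48. At least 3 genes of the thalamic list were at 2 or more in 19 of 55 cells of GABA type (34.5%, 22.2% to 48.6%) and 36 of 48 of glutamate type (75.0%, 60.4% to 86.4%). Tcf7l2 was so in 10 of 55 and 22 of 48, and Synpo2, an actin-binding protein, in 3 of 55 and 11 of 48. For the count of at least 3 thalamic genes no share of other neurons is given here. Rora was at 2 or more in most other neurons, and Ntng1, also on the list, had a level of 4.45 in them. That count therefore compares the 2 types and is no measure of thalamic identity. Of the markers that chose the cells, Otx2os1 was at 2 or more in 41 of 55 and 9 of 48, while Lef1 was in 34 of 55 and 37 of 48. For Gata3 and Tcf7l2 the untyped cells lay between, with 9 of 77 and 17 of 77. This did not hold for every gene. Synpo2 was at 2 or more in 0 of the 77, and the marker Pld5 in 40 of 77, against 13 of 55 and 20 of 48. The untyped cells also include 11 with at least 3 choroid plexus markers.

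Genes outside the lists were chosen after their values were seen, for a large difference between the types, so they describe that division and do not support it. The glutamate cells carried the early B-cell factors, a family of neuronal differentiation factors: Ebf1 was at 2 or more in 21 of 48 cells of glutamate type and 3 of 55 of GABA type, and Ebf2 in 13 of 48 and 0 of 55. Kitl, the ligand of the Kit receptor, had a level of 1.73 in cells of glutamate type and 0 in those of GABA type, and Cacna2d1, a calcium channel subunit, 7.82 and 0.477. On the GABA side Zfpm2, a cofactor of GATA proteins, had a level of 13.6 against 2.21, and the non-coding RNA Gm14204 1.61 against 0.104. Hs3st3b1, a heparan sulfate sulfotransferase like the marker Hs3st5, had 1.50 against 0.146. In the Lhx6 class the levels were 4.26 for Zfpm2, 1.31 for Gm14204 and 0.0133 for Hs3st3b1.

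Within single cells some of these genes were found together. Gad2 and Slc17a6 define the types, Otx2os1 helped choose the cells, and Gm14204, Zfpm2 and Ebf2 were picked for differing between the types. The groups are therefore in part built in and are a description only. Over all 186 cells Zfpm2 was at 2 or more in 58.6%, Otx2os1 in 51.6%, Gad2 in 48.9%, Gm14204 in 23.1% and Ebf2 in 11.8%. Of 28 cells with Gata3 at 2 or more, 24 had Gad2, 18 had Gm14204 and none had Slc17a6 or Ebf2. Of 13 cells with Tal1, 12 had Otx2os1 and all 13 had Zfpm2. Of 22 cells with Ebf2, 19 had Ebf1, 19 had Ebf3, 13 had Slc17a6 and none had Gad2, Otx2os1 or Otx2. Of 14 cells with Synpo2, 11 had Tcf7l2 (78.6%, against 26.3% of all 186) and 10 had Slc17a6 (71.4%, against 21.5%). Ebf1 was in 3 of the 14 (21.4%) and Ebf3 in 2 (14.3%), near their shares of 24.7% and 18.3% over all 186, and Ebf2 was in none.

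**Figure D4:**
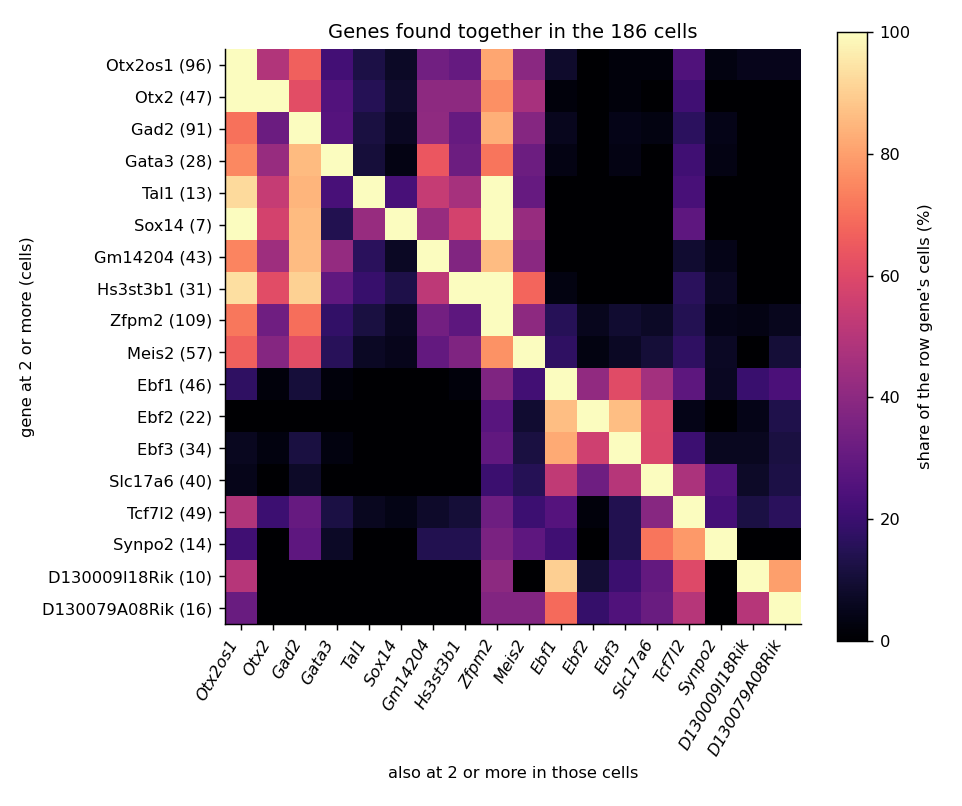
For each gene on the vertical axis (number of the 186 cells at 2 or more in brackets), colour gives the percent of those cells in which the gene on the horizontal axis was also at 2 or more. The genes found with Gad2 fill the upper left, Ebf1, Ebf2, Ebf3 and Slc17a6 form a second block, and Synpo2 goes with Tcf7l2 (11 of 14 cells). Ebf3 is also on the Cajal-Retzius list, and Slc17a6 was also found in the Cajal-Retzius class.

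The genes that stood highest above other neurons in both libraries, leaving out the 6 markers, are a description of cells that the markers chose. Zfhx3, a large zinc-finger homeobox factor, was first, with levels of 9.55 and 11.9 in wild-type and knock-in Lef1/Otx2os1 cells against 0.431 and 0.560, and it was at 2 or more in 62.4% of them. Plcb4, a phospholipase C known from thalamic neurons and Purkinje cells, was at 2 or more in 86.0%, against 10.7% of other neurons, 49.6% of the Lhx6 class and 47.9% of the Adarb2 interneuron class. Other classes shared leading genes too: Nxph1 had a level of 31.6 in the Lhx6 class and 8.13 in the Lef1/Otx2os1 cells, Ptprm 12.1 and 6.02, and Zfhx3 was at 21.4 in microglia and 11.2 in the Lef1/Otx2os1 cells. Htr2c, the serotonin 2C receptor, stood at 21.9 and 8.17, but at 2.70 and 2.96 without the 12 cells with choroid plexus markers. Rorb, Unc13c (a vesicle priming protein), Lhfpl3, Syt9, Ptprm, Rmst (a non-coding RNA of midbrain development), Rcan2, Gad2, Nxph1, Cacna2d2, Sema6a, Pbx3 and Kcnip1 were among the other leading genes, with levels 4.04 to 14.9 times those of other neurons. Pbx3 and Kcnip1 leaned to the GABA cells (6.62 and 6.51, against 4.05 and 3.23 in the glutamate cells), and Rmst and Rorb to the glutamate cells (7.59 and 5.48, against 3.04 and 2.81).

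Levels in knock-in and wild-type Lef1/Otx2os1 cells were compared with a size rule: a log2 ratio of at least 1 in size with 0.1 added, a level of at least 1 in one library, and a value above 0 in at least 10% of its cells. Of 2360 genes that could pass, 81 did (3.43%). In knock-in cells 35 stood higher (1.48%) and 46 stood lower (1.95%). In other neurons 7 of 2020 did (0.347%, with 0.248% higher and 0.099% lower), and these 7 passed in the Lef1/Otx2os1 cells too, in the same direction. The groups held 54 and 132 cells here and 3500 and 4367 among other neurons, so the 2 shares rest on very different numbers of cells.

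Pigv itself did not separate the libraries: its level was 0.149 in wild-type and 0.138 in knock-in Lef1/Otx2os1 cells. The transcript level does not check the genotype, since the labels name a changed allele and not a loss of the transcript. Abl1, which encodes a tyrosine kinase of the cytoskeleton, had the most negative log2 ratio among the genes past the rule, with 0.1 added to levels. Its level was 6.52 in wild-type and 0.730 in knock-in cells (log2 ratio -3.00), it was at 2 or more in 52 of 54 and 28 of 132 cells, and in other neurons the levels were 7.02 and 0.609. Hdc, the enzyme that makes histamine, went from 0.0557 to 4.68, and was at 2 or more in 0 of 54 and 118 of 132 cells. The non-coding RNA Gm14216 went from 0.0186 to 4.19. Both had the same direction in other neurons (0.0864 to 7.24 and 0.0710 to 6.87), so these differences were shared with the neurons around them. They held in cells of GABA type as well as of glutamate type: Abl1 was at 2 or more in 10 of 10 and 17 of 17 wild-type cells and in 10 of 45 and 5 of 31 knock-in cells.

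Other genes past the rule rested on few cells. Npsr1, the neuropeptide S receptor, was at 0 in all 54 wild-type cells and above 0 in 21 of 132 knock-in cells, with 26.3% of its sum in 1 cell. Nwd2 fell from 3.86 to 0.745, with 37.0% of the wild-type sum in 1 cell. D130009I18Rik and D130079A08Rik, non-coding RNAs that lie near each other on chromosome 14, fell from 1.47 to 0.108 and from 2.73 to 0.538, and were above 0 in 11 and 9 wild-type cells. With at least 4 markers required, Nwd2 and D130079A08Rik turned to higher in the knock-in library (log2 ratios of 1.03 and 0.61). Of 10 cells with D130009I18Rik at 2 or more, 9 had Ebf1 and none had Gad2. Lrriq1, Car12, Sulf1, Tmem72, Pdgfd and Shroom3 were lower in the knock-in library with log2 ratios from -2.16 to -1.72. Without the 12 cells with choroid plexus markers their ratios lay between -0.66 and 0.57, Tmem72 was 0 in both libraries, and 21 genes in all were lower in place of 46.

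Of the list of 13 mitochondrially encoded genes, 4 could pass and all 4 were higher, with a median log2 ratio of 2.15, against 0.46 in other neurons. mt-Nd2 went from 1.02 to 5.35 and mt-Nd1 from 0.762 to 3.82. One knock-in cell with 12.8% of its values in mitochondrial genes held 45.9% of the knock-in sum of mt-Nd2 and 45.5% of that of mt-Nd1. Without that cell the log2 ratios were 1.43 and 1.35. Gm28437, Gm28661, Gm10925 and Gm28438 were also among the 10 genes with the largest ratios, with log2 ratios from 2.09 to 2.29. For each of these, 1 cell held between 35.1% and 55.8% of the knock-in sum. The median mitochondrial share was 0.0383% in wild-type and 0.127% in knock-in Lef1/Otx2os1 cells and 0.0315% and 0.0887% in other neurons. What part RNA quality has in this difference was not tested.

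**Figure D5:**
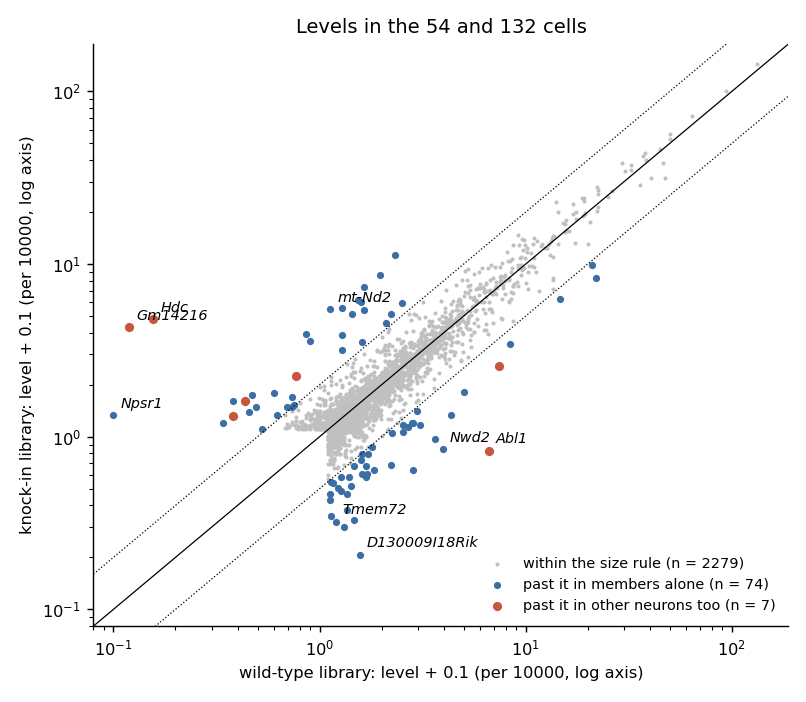
Level per 10000 plus 0.1 of each of 2360 genes in the wild-type (horizontal, 54 cells) and knock-in (vertical, 132 cells) Lef1/Otx2os1 cells, both on log axes; the solid line marks equal levels and the dotted lines 2-fold. Of the 81 genes past the size rule, 7 (red) also passed in other neurons, Abl1, Hdc and Gm14216 among them, and 74 (blue) did not pass there.

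Among the marker and transmitter genes, none of the 6 rule markers and none of the 3 GABA genes passed the size rule between the libraries. Otx2 was at 2 or more in 8 of the 54 cells from the wild-type library (14.8%, interval 6.62% to 27.1%) and, in the knock-in library, in 39 of 132 (29.5%, interval 21.9% to 38.1%). Without the cells with choroid plexus markers these counts were 3 of 47 (6.38%, 1.34% to 17.5%) and 34 of 127 (26.8%, 19.3% to 35.4%). Otx2 is itself among the markers that chose those cells, so leaving them out is no independent check of Otx2. Over the same cells the level of Otx2os1 was 2.16 and 7.22. Meis2, a homeobox factor of midbrain and forebrain GABA neurons, was at 1.54 and 5.34, and above 0 in 12 of 54 and 58 of 132 cells. Gata3 was at 2 or more in 5 of 54 and 23 of 132 cells (9.26% and 17.4%), and the exact intervals overlap. The knock-in library also held more cells of GABA type. Within that type (10 wild-type and 45 knock-in cells) the level of Otx2os1 was 2.10 and 10.8, that of Otx2 0.400 and 1.68, that of Meis2 1.20 and 8.02, and that of Gata3 1.10 and 1.15. In the glutamate type (17 and 31 cells) Otx2os1 was at 2.09 and 2.47 and Meis2 at 2.20 and 3.16.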

How the data were processed

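Droplet single-cell libraries (10x Genomics, version 3) of 2 pooled hippocampal samples, 1 per genotype, were analysed from a single table of 30223 genes by 15930 cells. The submitters' processing notes name Seurat 3.0.0 and the build GRCm38. Which aligner was used, how cells were filtered and whether doublets were removed is not given in the sources used here. The deposited values are treated as a score: they are whole numbers whose sum per cell lies between 4846 and 14501, a band narrower than raw counts give, and the table is named for Seurat's depth-corrected assay. Such a correction can place a 1 where no molecule was read, so no count model, interval for levels or p-value was used. Depth-corrected values lose differences in total RNA per cell.

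Cells were assigned to libraries by the prefix of their column names. Members, classes, levels, shares with exact Clopper-Pearson 95% intervals, and the size rule were computed with scipy 1.17.1 and pandas 2.3.3 under Python 3.11.15 (numpy 2.4.6). The size rule was tested on simulated data. An upper limit for a share of 0 is 3 cells of the total. Scrublet in scanpy 1.11.5 (expected rate 6%, seed 0), run per library, called 61 cells in the wild-type library (0.860%), none of them a Lef1/Otx2os1 cell, and 209 in the knock-in library (2.37%), among them 7 Lef1/Otx2os1 cells. Doublets were kept in the reported values and left out in an alternative. Named genes were those of the gene lists, the 25 leading genes, the 10 genes with the largest ratio in each direction past the size rule, Pigv and Abl1. Genes outside this rule are said to be so. Of the list genes 12 entries were not found in the table under their symbols. The cells, their rule and the gene lists were chosen with earlier results of these data known. Alternatives were another number or value of markers, other filters on cells, other pseudocounts and minimum levels, and leaving out each marker or the cells with markers of another type.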

Additional observations from a re-analysis of the deposited data

How the results depend on the processing

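The knock-in share of Lef1/Otx2os1 cells stayed above the wild-type share under each of the 14 alternatives computed for it, with a ratio from 1.68 to 2.50. The share itself follows the rule. At least 4 markers gave 0.324% of wild-type and 0.736% of knock-in cells, and a marker value of 3 gave 0.550% and 1.03%. Leaving 1 marker out of the rule, chosen after seeing the data, gave 0.479% and 1.05% without Lef1, 0.564% and 1.23% without Otx2os1, and 0.564% and 1.09% without 6330411D24Rik. It gave 1.09% of knock-in cells without Chrm2, 0.507% and 0.996% without Hs3st5, and 0.493% and 1.23% without Pld5. The GABA share was 38.6% and the glutamate share 15.9% with at least 4 markers, 17.7% and 14.0% with list genes at 3 or more, and 37.8% and 18.1% without Lef1. The glutamate share was 16.9% without Hs3st5. With values of 1 set to 0, 3 midbrain-derived GABA genes were 2-fold higher. The counts for the pallial and thalamic lists stayed within 1.5 times.

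The number of genes past the size rule depended on the settings. Higher and lower in knock-in cells were 20 and 20 genes at a minimum level of 2, 140 and 187 with no minimum, 53 and 87 with values of 1 set to 0, and 62 and 90 without Hs3st5. The lower count alone became 25 with 0.5 added, 23 in cells with neuron genes and no other cell type, 24 without Lef1, 12 without Otx2os1, 81 without 6330411D24Rik, 16 without Pld5 and 21 with fewer than 3 choroid plexus markers, the last chosen after seeing the data. Direction turned for 4 named genes. Nwd2 had log2 ratios of 1.03 with at least 4 markers, 0.69 without Otx2os1 and 1.05 without Pld5, and D130079A08Rik 0.61, 0.66 and 0.50. Car12 had 0.58 in cells with neuron genes and 0.57 with fewer than 3 choroid plexus markers, where Pdgfd had 0.051. The cause was not tested. No paired analysis was possible because each genotype is 1 library, and no replicate could be left out.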

Other observations

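The Lef1/Otx2os1 cells also differed from other neurons in receptors for transmitters. Values are levels per 10000 in wild-type and knock-in cells. Over all 9406 measured genes 3.5% were at least 2-fold higher in both libraries and 3.77% lower, which are the shares to read each count against. Of 16 measured subunits of ionotropic glutamate receptors, 5 were at least 2-fold higher in both libraries, among them Gria4, Grik1, Grin2d and Grin3a, and 4 were lower (Gria1, Grik4, Grin2a and Grin2b, the last of which helped define the other neurons). Gria4, an AMPA receptor subunit, stood at 10.8 and 12.9, against 3.12 and 4.47 in other neurons. Grin2a, an NMDA receptor subunit, stood at 5.85 and 6.55, against 26.4 and 22.8. Beside the marker Chrm2, the muscarinic receptor Chrm1 was lower, at 0.167 and 0.146 against 0.739 and 0.751.

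Of 12 measured genes of heparan sulfate sulfation, Hs3st3b1 and the marker Hs3st5 were higher, and Hs3st4, Hs6st3 and Ndst4 were lower. Hs3st4 stood at 1.80 and 3.08, against 7.45 and 7.93 in other neurons.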
